A study of Drosophila melanogaster with 8 samples.

Results

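The 200 most abundant transcripts of Drosophila melanogaster testis lysate were described across 8 RNA-seq libraries. They were the transcripts with the highest mean level over 4 input libraries among the 29345 annotated transcripts longer than 300 and shorter than 10000 nucleotides, called mid-length here, which in turn are most of the 30070 transcripts in the tables. They are 0.682% of the mid-length transcripts and 1.59% of the 12578 of these with a mean input level of at least 1 TPM. TPM divides the reads of a transcript by its effective length and scales every library to the same total, so it is a share of molecules and not an amount. TPM taken over the mid-length transcripts alone is called mid-length TPM. Levels in the inputs chose the members, and every comparison that uses the inputs is therefore given as a description unless members chosen from other libraries are named.

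The libraries came from RNA immunoprecipitation and sequencing (RIP-seq), in which an RNA-binding protein is captured on beads and the RNA held with it is sequenced beside RNA of the starting lysate, the input. The 3 HOW(S)-HA samples, numbered 1, 2 and 3, carried UAS-HOW-S-HA over nanos-GAL4, which drives the HA-tagged short, cytoplasmic isoform of the STAR protein HOW in germline stem cells and early spermatogonia. A single sample of the nanos-GAL4/nanos-GAL4 parent, which carries the driver but no tagged protein, was treated in the same way with anti-HA beads. Each sample was a pool of testes from males 0 to 3 days old, mated and unmated, and gave 1 input and 1 pull-down library, so that 3 HOW(S)-HA pairs and 1 nanos-GAL4 pair were compared. The driver acts in few of the cells of a testis, whereas the inputs hold RNA of all its cells, and in such bulk lysates fewer cells of a type and less RNA per cell cannot be told apart.

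In the fly testis, spermatocytes transcribe much of what spermatids later use, and many of these messenger RNAs are stored and translated only after transcription has stopped. Testis RNA is for that reason rich in germline transcripts of the later stages, many of them short and made in large amounts. RNA can also reach the beads without a contact to the tagged protein, which is why a pull-down from animals without the tagged protein is used as its control.

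The 200 members spanned a wide range of levels. Their mean input TPM ran from 245 to 9756, with a median of 456. The last 2 members, at 247.1 and 245.3 TPM, lay close to the next 2 transcripts outside the list, at 245.1 and 243.2 TPM, so the limit separates no natural class. Every member was measured deeply, with at least 378 estimated reads in each of the 8 libraries, and all 200 passed the filter on low counts in each comparison below. Depth ran from 9131088 estimated reads in HOW(S)-HA input 1 to 24018472 in HOW(S)-HA pull-down 2, and every library but the first held at least 19940851. No table given here pairs the identifiers of the members with gene names, so members are called by their rank and length, and lists of testis, accessory gland or muscle markers could not be set against them.

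The members were short. Their median length was 642 nucleotides, with quartiles at 422.5 and 1144.5. The 12578 mid-length transcripts with a mean input level of at least 1 TPM had a median of 1637 and quartiles of 1000 and 2620. Of the 200, 72 (36%) were at most 500 nucleotides long, against 4.32% of those 12578 transcripts. The 10 most abundant were all of this kind, at 306 to 446 nucleotides. The effective length that Salmon used was 249 nucleotides below the length for most transcripts, so rank 1, at 334 nucleotides, was divided by an effective length of only 85.03. When transcripts were instead ranked by reads per nucleotide of full length, 172 of the 200 members stayed in the list and its median length was 858.5 nucleotides.

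The share of the transcriptome that the members held in the inputs depended on what it was a share of. Of all TPM they held 15.7%, 17.1% and 16.5% in HOW(S)-HA inputs 1, 2 and 3 and 17.1% in the nanos-GAL4 input. These 4 values lay within a narrow band, and the HOW(S)-HA inputs averaged 16.4% ± 0.690 (SD, n = 3). Transcripts of 300 nucleotides or less, of which there were 147, took 68.2%, 60.6%, 62.3% and 57.1% of all TPM in the same 4 inputs, although they held at most 3.87% of the estimated reads in any library. Within mid-length TPM, the members held 49.5%, 43.4% and 43.7% in inputs 1 to 3 of HOW(S)-HA and 40.0% in that of nanos-GAL4. HOW(S)-HA input 1, the shallowest library, stood above the other 3 on this measure. Of the estimated reads the members held 24.9%, 20.8%, 20.7% and 19.6% in the same order, each with a 95% Wilson interval of at most 0.0280 percentage points to either side, which covers counting error only.

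**Figure D1:**
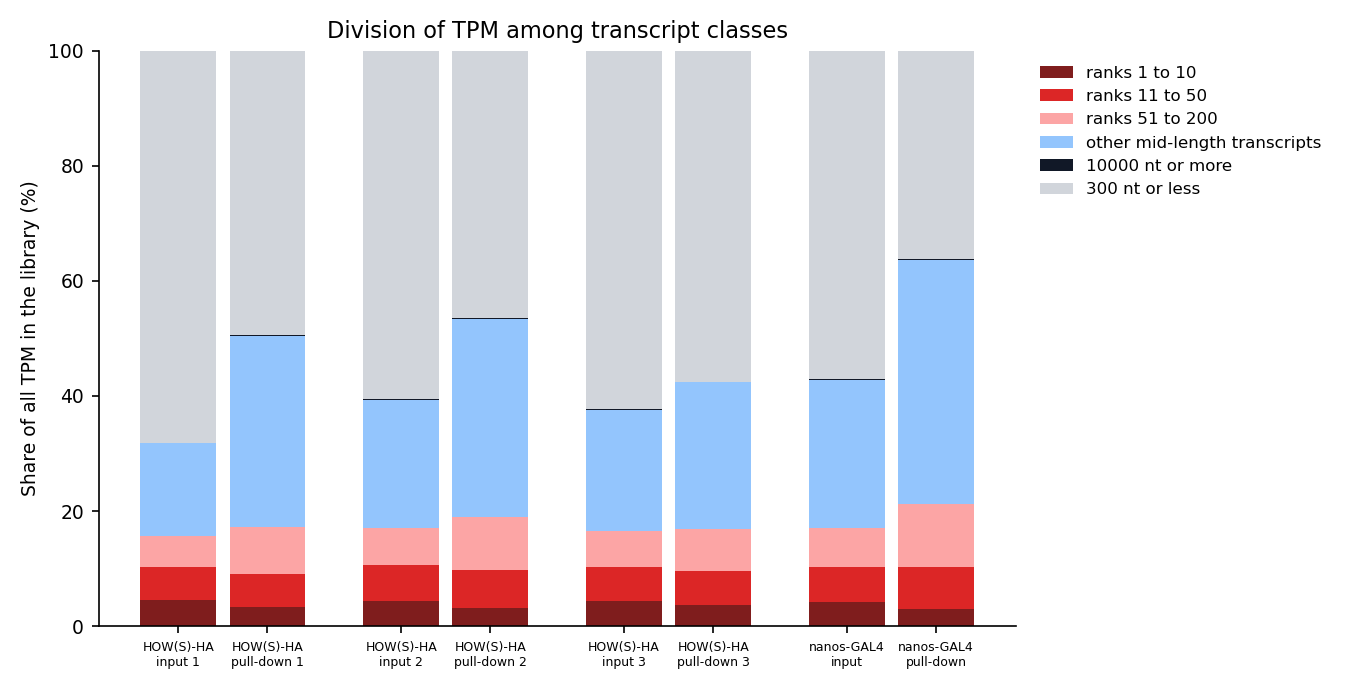
Each bar is 1 library and is divided into the share of all TPM (%, vertical axis) held by members of ranks 1 to 10, 11 to 50 and 51 to 200, by other mid-length transcripts (over 300 and under 10000 nucleotides), by those of 10000 or more and by those of 300 or less. The grey part falls from between 57.1% and 68.2% in the inputs to between 36.2% and 57.5% in the pull-downs, and the 3 red parts together stay between 15.7% and 21.1%.

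Membership was largely shared by the inputs. Of the 200 members, 186, 195 and 193 were among the 200 most abundant transcripts of HOW(S)-HA inputs 1, 2 and 3 taken singly, and 185 were among those of the nanos-GAL4 input. All 4 inputs listed 166 of them. The lists of HOW(S)-HA inputs 2 and 3 shared 197 transcripts, the most of any pair of inputs, and those of HOW(S)-HA input 1 and the nanos-GAL4 input shared 173, the fewest. Members varied between inputs by a median coefficient of variation of 18.7% on the TPM scale, beside 20.5% for the next 200 ranks and 23.2% for the 600 ranks after those. On mid-length TPM the medians were 13.4%, 12.6% and 13.8%. HOW(S)-HA input 1 decided much of the members' value, since without it their median on the TPM scale was 10.7%.

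Between the inputs of the 2 lines, no member was called different, and the side on which the nanos-GAL4 input lay depended on the scale. On the TPM scale the nanos-GAL4 input was above all 3 HOW(S)-HA inputs for 117 members, below all 3 for 30 and between them for 53, beside 67.3% above and 8.51% below among the 12578 transcripts with a mean input level of at least 1 TPM. On mid-length TPM the same counts were 69, 68 and 63, beside 49.1% above and 17% below among those transcripts. In edgeR's quasi-likelihood test with Benjamini-Hochberg adjustment over 12694 transcripts, none of the 200 members was called higher (background 0.0158%) or lower (background 0%) in the HOW(S)-HA inputs, and the smallest adjusted p of a member was 0.338. At an unadjusted p under 0.05 there were 29 members, 28 of them higher in the HOW(S)-HA inputs, beside 9.64% of all transcripts, and the members' number was 86, 18 and 16 without HOW(S)-HA inputs 1, 2 and 3 and 5 with library totals alone. DESeq2 called 4 members higher (background 0.67%) and none lower (background 0.142%). The share of all transcripts at an unadjusted p under 0.05, 9.64%, was counted only for the fit with 29 such members. The numbers 86, 18, 16 and 5 therefore have no background, and whether they are particular to the members was not tested. The spread between libraries that edgeR estimated over all transcripts (common dispersion) was 0.0334 in the fit with 29. It was 0.0072, 0.0530 and 0.0514 without HOW(S)-HA inputs 1, 2 and 3. The single nanos-GAL4 input was assumed to vary like the HOW(S)-HA inputs in these fits. In the fit with 29, HOW(S)-HA less nanos-GAL4 was above 0 for 150 members (51.3% of all transcripts) and below 0 for 50 (48.7%). Its median was 0.21 for the members and 0.01 for all, and -0.21 and -0.38 with library totals alone. The members were chosen on 3 HOW(S)-HA inputs and 1 nanos-GAL4 input, which can favour transcripts high in HOW(S)-HA. These signs, and the 28, therefore describe the list.

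The most abundant members are given in full because they head the list. Rank 1, of 334 nucleotides, stood at 8064, 9542 and 9170 TPM in HOW(S)-HA inputs 1 to 3 and at 12245 in the nanos-GAL4 input, and at 5891, 6073, 6650 and 5940 in the matching pull-downs. Rank 2, of 325 nucleotides, stood at 8518, 9679, 10839 and 8885 TPM in the inputs and at 7509, 6960, 8463 and 5789 in the pull-downs. For both of these the highest pull-down was below the lowest input. Rank 3, of 306 nucleotides, was the most variable of the top 10, with 9301, 5405, 5342 and 2782 TPM in the inputs and 6977, 3806, 5071 and 1596 in the pull-downs. It was lower in the pull-down of each pair, but its groups overlapped. Ranks 1 and 2 were also the leading 2 transcripts of the nanos-GAL4 pull-down, and all of the 10 leading transcripts of the length range there were members, down to rank 75.

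In the pull-downs, the share of all TPM held by the 200 was higher than in the input of every pair, while their share of mid-length TPM and of the reads was lower in every pair. Of all TPM the members held 17.2%, 18.9% and 16.9% in HOW(S)-HA pull-downs 1, 2 and 3, a change of 1.53, 1.80 and 0.465 percentage points from their inputs (mean 1.27 ± 0.707, SD, n = 3). In the nanos-GAL4 pull-down they held 21.1%, a change of 4.01 points. The nanos-GAL4 change lay above all 3 HOW(S)-HA changes, and with 1 pair against 3 an exact permutation test cannot go below p = 0.25.

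Within mid-length TPM, the members held 34.2%, 35.4% and 39.9% in the HOW(S)-HA pull-downs and 33.3% in the nanos-GAL4 pull-down. The changes were -15.3, -8.03 and -3.83 points in the HOW(S)-HA pairs (mean -9.05 ± 5.79, SD, n = 3) and -6.75 points in the nanos-GAL4 pair, which lay between those of HOW(S)-HA pairs 2 and 3. Of the estimated reads they held 16.5%, 17.9%, 19.3% and 17.8%, with changes of -8.32, -2.99, -1.46 and -1.82 points. The transcripts of 300 nucleotides or less moved in the direction opposite to the members' share of all TPM: they held 49.4%, 46.4% and 57.5% of all TPM in the HOW(S)-HA pull-downs and 36.2% in the nanos-GAL4 pull-down, each below its input.

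**Figure D2:**
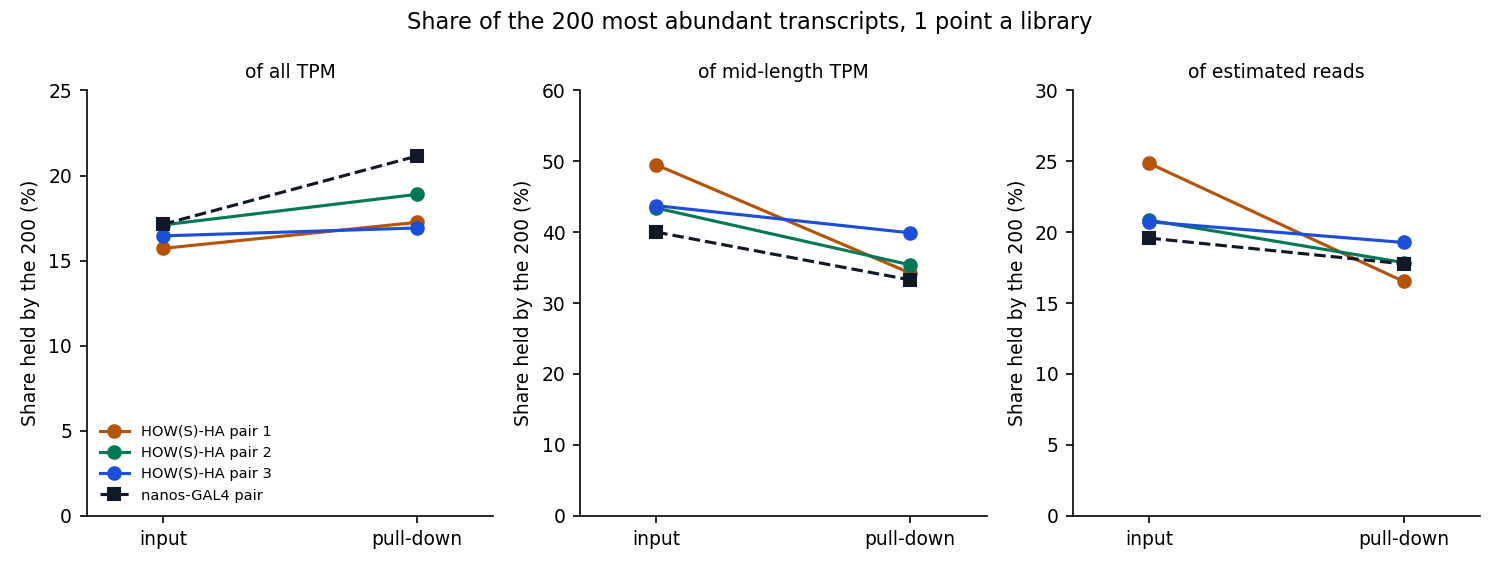
Share held by the 200 members (%, vertical axis) in the input and the pull-down of each pair, with 1 point a library and a line for each pair, as a share of all TPM, of mid-length TPM and of estimated reads. All 4 lines rise in the first panel, by 0.465 to 4.01 points, and all 4 fall in the other panels.

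Since the inputs chose the members, lists chosen otherwise were compared as well. The 200 most abundant transcripts of the nanos-GAL4 input, of which 185 were members, changed by -14.5, -7.59 and -3.52 points of mid-length TPM in the 3 HOW(S)-HA pairs, which were not used to choose them. An exact paired permutation test (two-sided sign flips) gave p = 0.25, the smallest that 3 pairs allow, and an exact unpaired permutation test gave p = 0.1, the smallest for 3 against 3. Their share of all TPM changed by 1.80, 1.99 and 0.580 points, with exact paired p = 0.25 and unpaired p = 0.2. The nanos-GAL4 input was also among the libraries that chose the members. A list led by an input can favour inputs over pull-downs, which these tests do not correct. When each library was given its own 200 leading transcripts, their share of mid-length TPM was 49.9%, 43.5%, 43.9% and 40.2% in the inputs and 35.5%, 37.2%, 40.6% and 35.7% in the pull-downs. It was lower in 4 of 4 pairs, with an exact sign-flip p of 0.125, the smallest for 4 pairs. For the same lists the share of the reads did not keep 1 direction, with changes of -5.23, -0.0074 and 0.734 points in the HOW(S)-HA pairs and 3.05 in the nanos-GAL4 pair.

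On mid-length TPM, though not shown for reads, the pull-downs were thus spread over more transcripts within the length range. To reach 90% of mid-length TPM, 3552, 3888 and 3896 transcripts were needed in HOW(S)-HA inputs 1 to 3 and 4126 in the nanos-GAL4 input, against 5164, 4824 and 4252 in the HOW(S)-HA pull-downs and 4458 in the nanos-GAL4 pull-down. The number was higher in the pull-down of each pair. Membership changed accordingly: 164, 165 and 175 of the members were among the 200 leading transcripts of the HOW(S)-HA pull-downs and 145 among those of the nanos-GAL4 pull-down. All 4 pull-downs listed 131 members, and 16 members were in no pull-down list.

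**Figure D3:**
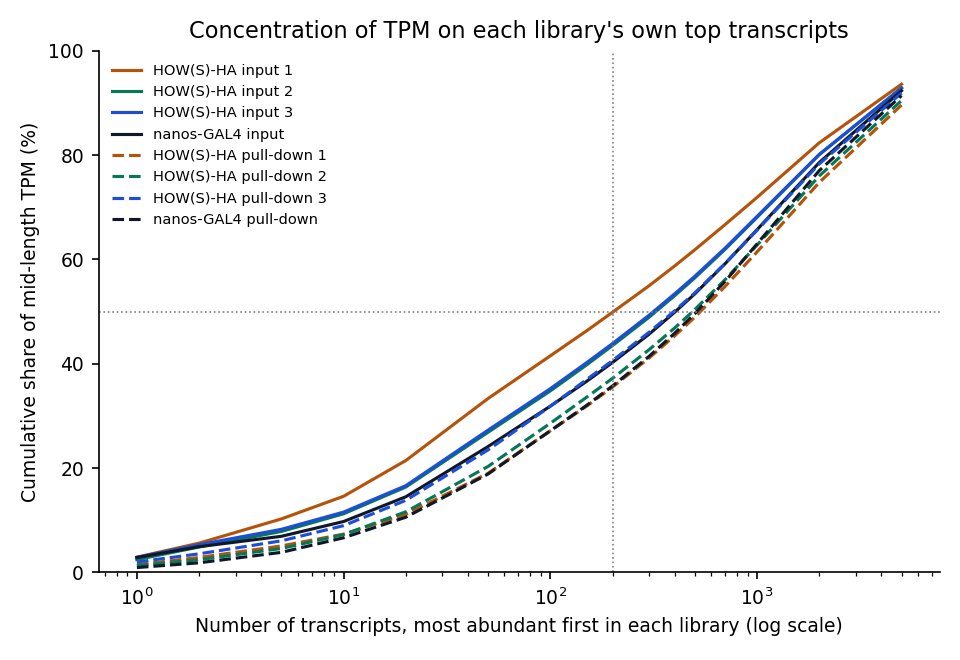
Cumulative share of mid-length TPM (%, vertical axis) against the number of transcripts, most abundant first in each library (log axis), with inputs as solid and pull-downs as dashed lines. At 200 transcripts (vertical dotted line) the inputs lie between 40.2% and 49.9% and the pull-downs between 35.5% and 40.6%, with HOW(S)-HA pull-down 3 nearest the inputs.

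The lower share of mid-length TPM lay with the highest ranks. Ranks 1 to 10 held 4.52%, 4.37%, 4.31% and 4.15% of all TPM in the inputs of HOW(S)-HA 1 to 3 and nanos-GAL4, and 3.39%, 3.16%, 3.68% and 2.88% in the pull-downs. The 4 inputs did not overlap with the 4 pull-downs. These 10 short transcripts held few of the reads, 1.51%, 1.12%, 1.13% and 0.919% in the inputs and 0.486%, 0.471%, 0.733% and 0.358% in the pull-downs. Of mid-length TPM, the same 10 held 14.2%, 11.1%, 11.5% and 9.68% in the inputs and 6.73%, 5.93%, 8.67% and 4.53% in the pull-downs. Ranks 11 to 50 held 18.3%, 15.7%, 15.7% and 14.4% and then 11.1%, 12.3%, 14.0% and 11.6%. On mid-length TPM both of these upper classes were lower in the pull-down of all 4 pairs. As a share of all TPM, ranks 11 to 50 were lower in pair 1 of HOW(S)-HA, by a change of -0.22 points, and higher in the other pairs, by 0.43 and 0.033 points in HOW(S)-HA pairs 2 and 3 and 1.23 in nanos-GAL4.

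In the lower ranks, the changes in mid-length TPM were smaller. Ranks 51 to 100 held 7.51% to 8.51% of mid-length TPM in the inputs and 8.37% to 8.69% in the pull-downs, and the last 100 ranks held 8.42% to 8.77% and 8.01% to 8.56%. By pair, ranks 51 to 100 were higher in 3 of 4 pull-downs, with changes of -0.14, 0.75 and 0.74 points in HOW(S)-HA pairs 1 to 3 and of 1.18 points in the parent, and the last 100 ranks were lower in 4 of 4, with changes of -0.41, -0.30, -0.10 and -0.025 points. As shares of all TPM both were higher in the pull-down of every pair: ranks 51 to 100 went from between 2.70% and 3.21% to between 3.66% and 5.52%, and the last 100 ranks from between 2.67% and 3.63% to between 3.63% and 5.37%.

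Counted one by one on the TPM scale, 91 members were higher in the pull-down of all 4 pairs, beside 60.2% of the 12578 transcripts with a mean input level of at least 1 TPM, and 28 were lower in all 4, beside 1.42%. On mid-length TPM, 39 members were higher in all 4 pairs, beside 32% of those transcripts, and 94 were lower, beside 10.6%. Over HOW(S)-HA alone, all 3 pull-downs were below all 3 inputs for 70 members, beside 7.55% of those transcripts, and above them for 39, beside 30.4%. The members' median log2 ratio on this scale was -0.26, -0.24 and -0.13 in the HOW(S)-HA pairs and -0.31 in the nanos-GAL4 pair. For the next 200 ranks the medians were 0.14, -0.15, -0.09 and -0.20. Of the 12578 transcripts, 11735 had a ratio in all 4 pairs, as did all 200 members. In the counts over 4 pairs the rest fall in neither direction. The ratios were measured against inputs that had chosen the members, so these counts describe the list and test nothing.

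**Figure D4:**
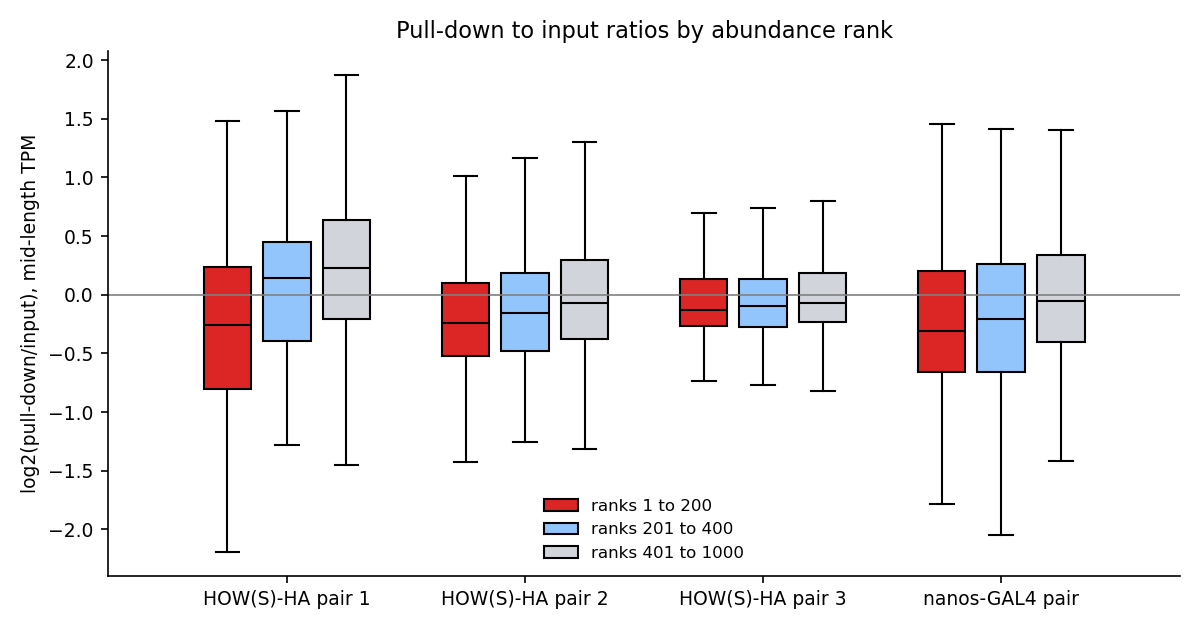
log2 ratio of pull-down to input on mid-length TPM (vertical axis) in each of the 4 pairs, for the members, the next 200 ranks and the 600 ranks after those, where the line in a box is the median, the box the quartiles and the whiskers reach the farthest value within 1.5 times the box height. The medians of the 200 members are below 0 in every pair and run from -0.31 to -0.13.

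Length went with the ratio among the members. Over the 200, Spearman's rho between length and the mean log2 ratio of the 4 pairs was 0.62, and in the single pairs it was 0.50 to 0.59. Among the 800 transcripts next in rank it was 0.55. These correlations are over transcripts that share libraries and the length correction, and they are a description. The effective length of a transcript was identical in all 8 libraries, so it cancels in each ratio but for the scaling of the whole library. The cause of the relation with length was not tested.

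By length class, the median of the mean log2 ratio was -0.61 for the 42 members of up to 400 nucleotides and -0.44 for the 30 of over 400 and up to 500. It was -0.22 for the 38 of up to 700, and then 0.01, 0.02 and 0.09 for the 29 of up to 1000, the 26 of up to 1500 and the 13 of up to 2000. The 22 members of more than 2000 nucleotides had a median of 0.49. The remaining transcripts of the same classes with a mean input level of at least 1 TPM had medians of -0.33, -0.25, -0.15, -0.05, 0.10, 0.23 and 0.34. The order by length was therefore not particular to the members.

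The 72 members of at most 500 nucleotides held 31.7%, 26.5%, 26.7% and 22.9% of mid-length TPM in the inputs and 16.9%, 17.1%, 21.9% and 13.7% in the pull-downs. None of them was higher in all 4 pairs, and 54 were lower in all 4, beside 32% and 10.6% of the 12578 transcripts of all lengths. The 61 members over 1000 nucleotides went the other way, from 8.17%, 7.64%, 7.66% and 8.04% to 9.21%, 9.74%, 9.26% and 10.99%, with all 4 pull-downs above all 4 inputs. Of these 61, 29 were higher and 13 lower in all 4 pairs, beside the same 32% and 10.6%. Such shares were not counted over other transcripts of the same lengths, so whether these numbers are particular to the members was not tested. Rank and length overlapped, since 36 of ranks 1 to 50 but also 36 of ranks 51 to 200 were at most 500 nucleotides long. These short members had median ratios of -0.67 in the upper and -0.42 in the lower ranks, and the longer members of the same ranks had -0.11 and -0.06.

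**Figure D5:**
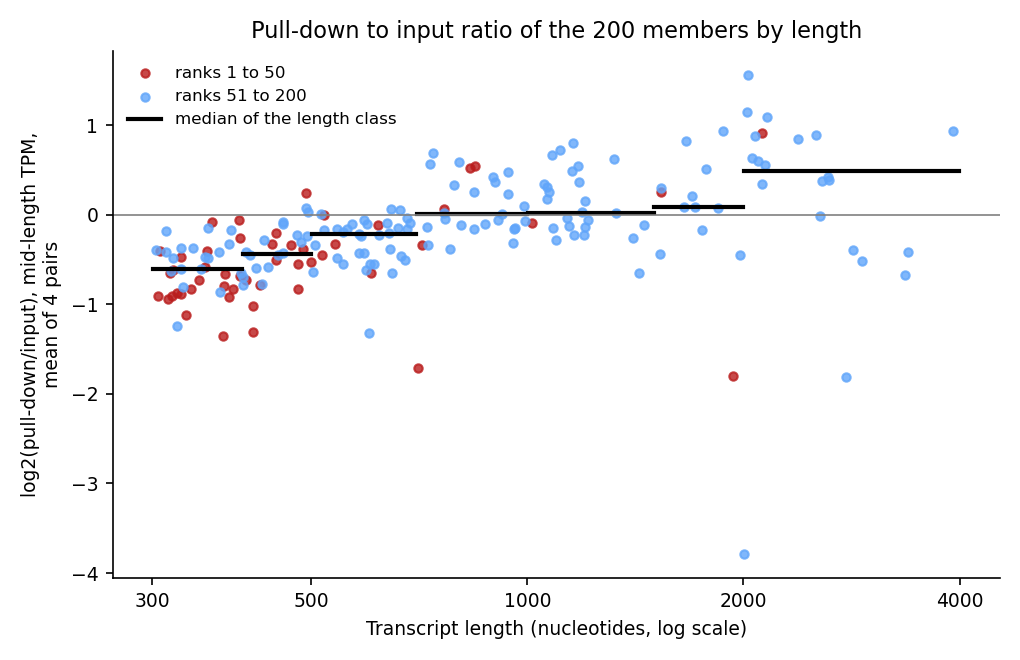
Mean log2 ratio of pull-down to input over the 4 pairs, on mid-length TPM (vertical axis), against length in nucleotides (log axis), with 1 point a member, coloured by rank, and the median of each length class as a black line. The class medians climb from -0.61 up to 400 nucleotides to 0.49 above 2000, and 1 member lies near -3.79.

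The pull-down effect in HOW(S)-HA was also fitted across all transcripts, with edgeR's quasi-likelihood test, a term for the pair and Benjamini-Hochberg adjustment over 12618 transcripts. A transcript was called at a log2 fold change of at least 1 or at most -1 with an adjusted p of at most 0.05. Of the 200 members, 1 was called higher, where 3.21% of all tested transcripts were, and 2 were called lower, where 0.388% were. None of the members, and none of all transcripts, was called with input and pull-down given to the filter as groups (16878 transcripts) or with no filter (26906), and none of the members without pair 2, where 5 of all 12891 transcripts were. The members' median log2 fold change was -0.42 against 0.02 for all tested transcripts, and 162 of the 200 (81%) were below 0 against 48.3%, with 38 above 0 against 51.7%. Scaling moved the zero of this comparison and not the distance: with library totals alone the medians were 0.23 for the members and 0.66 for all, and 19 members were called higher (background 24.2%) and 3 lower (background 0.182%). Without the pair term, 1 member was called higher (background 3.91%) and 11 lower (background 0.642%). DESeq2 called 1 member higher (background 3.45%) and 25 lower (background 1.42%), and limma-voom called 1 higher (background 3.27%) and 7 lower (background 0.46%). The 2 members called lower were rank 22, of 704 nucleotides, at -1.98 (SE 0.29, adjusted p = 0.035 in edgeR), and rank 145, of 601 nucleotides, at -1.40 (SE 0.25, adjusted p = 0.048 in edgeR). Both also fell in the single nanos-GAL4 pair, where their log2 fold changes were -1.63 and -1.83.

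FBtr0332255, at rank 75 and 2030 nucleotides long, was the member called higher. Its level was 393, 481 and 441 TPM in HOW(S)-HA inputs 1 to 3 and 1744, 2186 and 1471 TPM in their pull-downs, and 906 and 3683 TPM in the input and pull-down of nanos-GAL4. Every pull-down was above every input, and the highest of the 8 libraries was the pull-down without the tagged protein. In HOW(S)-HA the fitted log2 fold change came to 1.38 (SE 0.18, adjusted p = 0.029 in edgeR), and the effect in HOW(S)-HA less that in nanos-GAL4 was -0.05 (SE 0.35). The call was lost in 4 of 12 alternatives, at log2 fold changes of 1.29 to 1.32: the adjusted p in edgeR was 0.0999 with groups in the filter, 0.154 with no filter, 0.259 without pair 2 and 0.077 without pair 3. It moved from ranks 96, 99, 109 and 55 of the single inputs to ranks 18, 18, 29 and 7 of the pull-downs.

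FBtr0087092, at rank 57 and 2022 nucleotides long, had the next highest ratio. It stood at 502, 792, 729 and 1099 TPM in the inputs of HOW(S)-HA 1 to 3 and nanos-GAL4 and at 2002, 2327, 1648 and 3637 TPM in the pull-downs. Here too the groups did not overlap and the nanos-GAL4 pull-down was the highest. In HOW(S)-HA the fit gave it a log2 fold change of 0.93 (SE 0.16, adjusted p = 0.045 in edgeR), short of the fold required for a call. Of the alternatives, only library totals alone called it, at 1.59 (adjusted p = 3.5e-09 in edgeR), and elsewhere its adjusted p ran up to 0.355.

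FBtr0346902, at rank 162 and 2004 nucleotides long, had the lowest ratio. It ranked 57 in HOW(S)-HA input 1 but 368, 355 and 346 in the other inputs, so input 1 put it among the members. It stood at 697, 156, 154 and 182 TPM in the inputs and at 26.9, 19.0, 49.7 and 11.9 TPM in the pull-downs, so that every pull-down was below every input. In HOW(S)-HA the fit put its change at -3.75 on the log2 scale (SE 0.83), with an adjusted p of 0.065 in edgeR. It was called lower by DESeq2 (adjusted p = 0.0017), without the pair term (adjusted p = 0.034 in edgeR) and with library totals alone (adjusted p = 2.6e-20 in edgeR). FBtr0346871, at rank 71 and 2775 nucleotides long, was next lowest, with 1744, 160, 40.8 and 409 TPM in the inputs and 418, 223, 18.8 and 62.5 TPM in the pull-downs. Its ranks in the single inputs were 25, 362, 1571 and 125. It was not lower in every pair, since pull-down 2 was above input 2, and its log2 fold change was -1.53 (SE 0.60, adjusted p = 0.169 in edgeR).

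These lowest members belonged to a set of 4, at ranks 22, 49, 71 and 162, whose identifier numbers lie within 31 of each other. The files list 14 transcripts in that span, and 4 of them are members. They were also the 4 members that varied most between the inputs, and each was highest in HOW(S)-HA input 1. Together they held 3.88% of the reads of HOW(S)-HA input 1 but 0.596%, 0.543% and 0.709% of those of the other inputs, and 0.378%, 0.205%, 0.216% and 0.0986% of those of the pull-downs. Without them the members' share of the reads still changed by -4.82, -2.59, -1.13 and -1.21 points in HOW(S)-HA pairs 1 to 3 and nanos-GAL4, and their share of mid-length TPM by -13.3, -7.73, -3.46 and -6.34 points.

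The pull-down ratios of the members were correlated between the 2 lines, as were those of other transcripts. Over the 200 members, Pearson's r between the ratios of the nanos-GAL4 pair and those of HOW(S)-HA pairs 1, 2 and 3 was 0.76, 0.85 and 0.87, and among the HOW(S)-HA pairs it was 0.66 to 0.87. Over 794 transcripts next in rank, r with the nanos-GAL4 pair was 0.65, 0.88 and 0.85. These pairs share no library, and the values describe transcripts, which are not independent replicates. The spread of the ratios was narrowest in HOW(S)-HA pair 3, with an SD of 0.396 on the log2 scale, and 0.861, 0.609 and 0.737 in HOW(S)-HA pairs 1 and 2 and the nanos-GAL4 pair.

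Fitted in 1 model over all 8 libraries and 12346 transcripts, the members had a median log2 fold change of -0.36 in nanos-GAL4, with 138 of the 200 below 0, where 49.8% of all transcripts were. In that pair, which has no replicate, the log2 fold change reached 1 for 6 members, where 7.74% of all did, and -1 or lower for 25, where 3.75% did. The difference in effect between the lines was called for none of the members in either direction (background 0% of all transcripts each way) by edgeR at an adjusted p of at most 0.05. At an unadjusted p under 0.05 it was found for none of the members, beside 2.88% of all transcripts, and the smallest unadjusted member p was 0.0686. DESeq2 and limma-voom also called none of the members, but DESeq2 called very few of all transcripts and limma-voom none. The absence of calls is therefore not particular to the members. The difference was below 0 for 132 members, beside 52.2% of all transcripts, and above 0 for 68, beside 47.8%, with a median of -0.18, and its spread rests on the 3 HOW(S)-HA pairs alone. Without HOW(S)-HA pair 1 the median was -0.05 with 109 members below 0. Without pair 2 it was -0.07 with 124, and without pair 3 it was -0.26 with 152. The difference uses the inputs that chose the members, 3 of HOW(S)-HA and 1 of nanos-GAL4, which can favour lower ratios in HOW(S)-HA. These signs and medians therefore describe the list.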

How the data were processed

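Each of the 8 libraries came as 1 Salmon quantification table. The authors removed ribosomal RNA before library preparation, made stranded libraries, sequenced single 75-nucleotide reads, trimmed them with Cutadapt 1.1, removed remaining ribosomal and transfer RNA reads with Subread 2.0.0 and quantified the rest with Salmon 0.14.2. The deposited TPM values are scaled to each library's total, and the deposited estimated counts need not be whole, since Salmon divides reads that match several transcripts among them. Length and effective length, in nucleotides, are in the same tables.

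Members were chosen by mean TPM over the 4 inputs. Shares were taken of all TPM, of mid-length TPM and of estimated reads. For tests, TPM was scaled to each library's read total, as in the study's methods, and rounded. Transcripts were filtered with filterByExpr (minimum count 10, total 15, libraries as 1 group), normalised by TMM and tested in edgeR 4.0.16 (R 4.3.3) with a term for the pair. Each input was set aside from the lysate of its pull-down, which is where the pairing comes from. The deviations of paired libraries from their group means correlated at 0.0148 to 0.0718 over 12618 transcripts and at 0.295 to 0.361 over the members. Replicates differed by far more than sampling noise, with a chi-square per degree of freedom of at least 11.1 between any 2 libraries of a group. On simulated counts with 200 transcripts changed 4-fold, the fit for HOW(S)-HA pull-down versus input, run on 12534 transcripts, recovered 100% with 1 false call. The changed transcripts were drawn from well counted ones, and the pairs were given no differences of their own. The result therefore does not show how well smaller changes are found in the real libraries. DESeq2 1.42.0 and limma 3.58.1 were alternatives, as were other filters, scalings and choices of members.

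The members, the lists and the form of the filter were chosen with earlier results of these data known. Identifiers were printed for the 2 members of highest and the 2 of lowest mean log2 ratio over the 4 pairs only, since the supplementary tables name 29 transcripts, of which 0 are members. Ranks were used for all others, as the 10 most abundant, the members called and those at the limit.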

Additional observations from a re-analysis of the deposited data

How the results depend on the processing

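The direction of the change in the share of all TPM (1.27 points in HOW(S)-HA, 4.01 in nanos-GAL4) depended on the denominator and on the length limit. As a share of mid-length TPM it was -9.05 and -6.75 points, of estimated reads -4.26 and -1.82, without a length limit -11.5 and -17.1, and with transcripts ranked and shared by reads per nucleotide of full length, a choice made after seeing the data, -2.92 and -0.383. Members chosen from the pull-downs gave 2.34 and 5.70 points, the 100 most abundant 0.332 and 2.27, and the 500 most abundant 3.02 and 6.73. In nanos-GAL4, members chosen from all 8 libraries gave 5.03 and each library's own 200 gave 5.49. Leaving out 1 HOW(S)-HA pair gave 0.999 to 1.67 points. The median coefficient of variation of the members between inputs, 18.7%, was 10.7% to 21.2% with 1 HOW(S)-HA input left out, a check added after seeing the data, and 10.7% is the value without input 1.

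Of the calls in HOW(S)-HA, 1 member higher and 2 lower, none remained when the filter was told which libraries were inputs (0 and 0, with 0 and 0 of 16878 transcripts called) or with no filter (0 and 0). Library totals alone gave 19 higher and 3 lower, with 3059 higher and 23 lower of all 12618 transcripts where the setting used in the report gave 405 and 49. DESeq2 called 25 members lower, with 179 of all transcripts lower, limma-voom called 7, and the fit without the replicate block called 11, with 81 of all transcripts lower. Leaving out 1 pair gave 0 to 1 members higher and 0 to 2 lower: 1 and 1 without pair 1, 0 and 0 without pair 2, 0 and 2 without pair 3, where 338 and 41, 5 and 0, and 66 and 13 of all transcripts were called. Among the 200 of the nanos-GAL4 input 2 were higher and 2 lower. Among those of all 8 libraries, a choice that also used the pull-downs, 4 were higher and 1 lower. The members' median log2 fold change, -0.42, was -0.51 with no filter, -0.54 on the deposited estimated counts, 0.23 with library totals alone and -0.59 to -0.32 with 1 pair left out. The fold change of FBtr0332255 lay between 1.26 and 2.04 over 12 alternatives, with adjusted p from 3.1e-14 to 0.259, that of FBtr0087092 between 0.81 and 1.59 (3.5e-09 to 0.355), that of FBtr0346902 between -4.75 and -2.76 (2.6e-20 to 0.258) and that of FBtr0346871 between -2.58 and -0.73 (0.0072 to 0.333). The cause of these differences was not tested. For the inputs, DESeq2 called 4 members higher where edgeR called 0, with 85 and 2 of all 12694 transcripts higher. The difference in effect between the lines was called for none of the members in the 9 alternatives run. Few or none of all transcripts were called in them, and a single nanos-GAL4 pair limits what can be found. The replicate block changed no other call on the members.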
